A study of Mus musculus with 11 samples.

Results

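The 9 genes described here encode extracellular matrix proteases and the inhibitors that bind them. The inhibitors are the tissue inhibitors of metalloproteinases *Timp1*, *Timp2* and *Timp3*. The proteases are the matrix metalloproteinases (MMPs) *Mmp2* and *Mmp14* and, from the ADAMTS family (a disintegrin-like and metalloprotease with thrombospondin motifs), *Adamts1*, *Adamts4*, *Adamts5* and *Adamts9*. They were chosen by symbol, with earlier results of these data known, and found through their Entrez gene identifiers. They make up 9 of the 27179 rows of the deposited count table. All 9 passed the filter on low counts and were among the 11948 genes tested.

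MMPs and ADAMTS proteases are zinc enzymes that cut matrix outside the cell, and a TIMP blocks them by inserting its amino-terminal end into the active site. MMP14 sits in the cell membrane, where it cleaves fibrillar collagen and, together with TIMP2, activates the secreted gelatinase MMP2. ADAMTS1, ADAMTS4, ADAMTS5 and ADAMTS9 cut large proteoglycans such as versican and aggrecan, and TIMP3, which stays bound to the matrix, is the inhibitor best known for acting on ADAMTS4 and ADAMTS5. In sprouting vessels these enzymes take part in the breakdown and renewal of the vascular basement membrane.

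RNA was sequenced from CD31hi EMCNhi endothelial cells, a surface signature that marks type H capillaries in healthy bone, sorted from the bone marrow of wild-type BALB/c mice (young adults per the study's methods). Tumour-burdened mice carried 4T1.2 cells, a BALB/c mammary cancer line that spreads to bone and was labelled with red fluorescent protein. Infiltrated marrow, found by that fluorescence, gave 3 met libraries, the tumour-free marrow beside it gave 6 non-met libraries, and age-matched healthy mice gave 2 control libraries. A sort on these markers does not by itself show that the cells of every group were type H. Each library came from a pool of mice. Of the 4 burdened pools, the first is the source of non-met 1 and 5 alone. Met 1 shares its mice (pool 2) with non-met 2 and 6, met 2 (pool 3) with non-met 3, and met 3 (pool 4) with non-met 4. P-values treat libraries of 1 pool as independent, which they are not. The marrow was digested with collagenase before the sort, CD45+ and Ter-119+ cells were gated out, and each library was amplified from a small number of cells.

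Total counts ranged from 733342 in non-met 4 to 19539761 in control 1. All 12 endothelial markers had reads in every library, with a summed level of 9364 to 17760 CPM (read counts relative to library size, scaled by the trimmed mean of M-values). Stromal, perivascular and osteolineage markers (20 genes, *Bglap* at 0 in every library) summed to 4422 and 11510 CPM in the controls, 1410 to 4819 in non-met and 610.1 to 3585 in met, of which *Cxcl12* alone made up 3224 and 8721 CPM in the controls. Granulocyte markers (10 genes, none at 0 throughout) summed to 77.8 and 358.6 CPM in the controls, 397 to 5111 in non-met and 35.5 to 204 in met. Controls 1 and 2 and non-met 1 and 2 had at most 2.96 CPM of the keratins *Krt8* and *Krt18* together, and the other 7 libraries 6.69 to 52.2 CPM. Met and control were never found on the same side of that split. In sorted pools, fewer cells of a type and less RNA per cell cannot be told apart.

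The stretch of coding sequence that serves each protein's part in inhibition or cleavage is shown first, since inhibitor and protease meet at these residues. For the inhibitors it holds the codons of the first 9 residues of the mature protein, whose leading cysteine (capitals) docks on the zinc of the protease. For the proteases it holds the 11 codons of the zinc-binding site, with the codons of the 3 histidines that hold the metal in capitals. Sequences are GENCODE M21 transcripts on GRCm38, read 5′ to 3′.
Timp1, chrX:20871111-20871137 (plus strand, exon 2 of 6): TGTagctgtgccccaccccacccacag
Timp2, chr11:118354986-118355012 (minus strand, exon 1 of 5): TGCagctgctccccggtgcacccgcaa
Timp3, chr10:86300923-86300949 (plus strand, exon 1 of 5): TGCacatgctctcccagccatccccag
Mmp2, chr8:92839279-92839311 (plus strand, exon 8 of 13): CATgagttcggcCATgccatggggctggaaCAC
Mmp14, chr14:54437627-54437659 (plus strand, exon 5 of 10): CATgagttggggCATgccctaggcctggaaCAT
Adamts1, chr16:85799191-85799545 (minus strand, exons 3 and 4 of 9): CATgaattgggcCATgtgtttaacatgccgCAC
Adamts4, chr1:171253210-171253915 (plus strand, exons 3 and 4 of 9): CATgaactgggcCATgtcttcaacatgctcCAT
Adamts5, chr16:85878015-85887826 (minus strand, exons 2 and 3 of 8): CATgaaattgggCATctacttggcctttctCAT
Adamts9, chr6:92905285-92908493 (minus strand, exons 8 and 9 of 40): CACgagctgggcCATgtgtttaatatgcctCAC

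All 3 inhibitor stretches lay within 1 exon. In the proteases the site lay within 1 exon in *Mmp2* (exon 8) and *Mmp14* (exon 5), whereas in each of the 4 ADAMTS genes an intron divided it. The *Mmp2* and *Mmp14* sites matched at 27 of 33 bases, *Adamts1* matched *Adamts9* at 28 and *Adamts4* at 27, and *Adamts5* matched the other 3 ADAMTS genes at only 18 to 20. It matched *Mmp2* at 18 and *Mmp14* at 22. Among the inhibitors, 16 to 18 of 27 bases matched.

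On GRCm38, RefSeq places *Timp1* at chrX:20870166-20874737 (plus strand), *Timp2* at chr11:118301061-118355411 (minus) and *Timp3* at chr10:86300412-86349505 (plus). *Mmp2* is at chr8:92827290-92853421 (plus) and *Mmp14* at chr14:54431598-54442456 (plus). *Adamts4* is at chr1:171250129-171262267 (plus) and *Adamts9* at chr6:92772699-92944450 (minus). *Adamts1* (chr16:85793827-85803113) and *Adamts5* (chr16:85858157-85901125) are neighbours on the minus strand, with 55043 bases between them. *Timp3* lies inside *Syn3*, a gene of the other strand with which it shares 1733 exon bases, and *Syn3* had 0 reads in 10 of 11 libraries. Whether counting used strand is not stated, so reads in those bases cannot be assigned to either gene. *Adamts9* was counted over 6036 bases, within 3 bases of the length of a GENCODE transcript (6033 bases) that lacks the zinc-binding site, whereas the full-length transcript shown above has 8016 bases.

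Upstream sequence is given for *Timp3* and *Adamts1*, the inhibitor and the protease that passed the test in met against control and have an entry in the RefSeq promoter table of GRCm38.p6. Each line holds the 250 bases before the annotated start, on the strand of the gene, with a match to TATAAA in capitals.
Timp3, chr10:86300162-86300411: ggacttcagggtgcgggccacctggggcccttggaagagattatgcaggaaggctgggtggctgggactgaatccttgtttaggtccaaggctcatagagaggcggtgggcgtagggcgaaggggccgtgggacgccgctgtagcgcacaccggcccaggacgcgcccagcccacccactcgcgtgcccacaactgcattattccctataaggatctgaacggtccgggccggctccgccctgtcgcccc
Adamts1, chr16:85803114-85803363: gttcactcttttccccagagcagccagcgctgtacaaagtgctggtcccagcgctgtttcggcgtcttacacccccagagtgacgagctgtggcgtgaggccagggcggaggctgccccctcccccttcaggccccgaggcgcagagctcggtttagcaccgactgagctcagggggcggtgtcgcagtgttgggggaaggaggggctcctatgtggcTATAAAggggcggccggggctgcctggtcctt
On both strands, *Adamts1* held TATAAA once, 32 bases before the start, and *Timp3* held none. TATAAA was found in 12.4% of the 32851 promoters of the table over the same 250 bases. *Adamts1* held 3 copies of the GC box GGGCGG and *Timp3* 1, a motif found in 32.7% of promoters. Neither held the AP-1 motif TGANTCA (6.75% of promoters) nor the cyclic AMP response element TGACGTCA (1.55%). A match, or its absence, describes only the letters of this window.

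Per length of gene, *Timp3* was the most abundant inhibitor and *Mmp14* the most abundant protease. The level in RPKM (CPM divided by the gene length in kilobases) averaged 249.2 ± 148 for *Timp3* (SD over all 11 libraries), 207.6 ± 83.5 for *Mmp14*, 155.1 ± 64.9 for *Adamts5* and 144.7 ± 48.4 for *Adamts1*. It averaged 85.7 ± 52.9 for *Timp2*, 52.0 ± 48.3 for *Adamts4* and 33.4 ± 19.3 for *Adamts9*. *Timp1*, at 16.6 ± 19.7, and *Mmp2*, at 5.34 ± 7.28, were the lowest. Neighbours in this order overlapped widely. *Timp3* exceeded *Mmp14* in 7 of 11 libraries, *Mmp14* exceeded *Adamts5* in 8, *Adamts5* exceeded *Adamts1* in 7 and *Adamts4* exceeded *Adamts9* in 6. The clearest step was that from *Adamts1* to *Timp2*, which held in 10 of 11 libraries.

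*Timp3* made up 41.7% (non-met 5) to 82.1% (met 1) of the summed TIMP level per length. *Timp2* was the larger part in non-met 5 (57.8%), and *Timp1* reached its highest share in non-met 2 (24.3%). Among the proteases *Mmp14* led in 7 libraries, *Adamts5* in 3 (control 2, non-met 3 and non-met 4) and *Adamts1* in met 1. The summed TIMP level was 272.2 and 244.6 RPKM in the controls, 185.4 to 746.1 with a median of 254.3 in non-met, and 435.2, 347.4 and 629.8 in met. The summed protease level was 360.6 and 307.3 RPKM in the controls, 365.9 to 875.9 (median 629.1) in non-met, and 811.3, 611.7 and 742.9 in met. Both controls had less protease RNA than any burdened library, whereas only met separated from control in the TIMP sum.

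**Figure D1:**
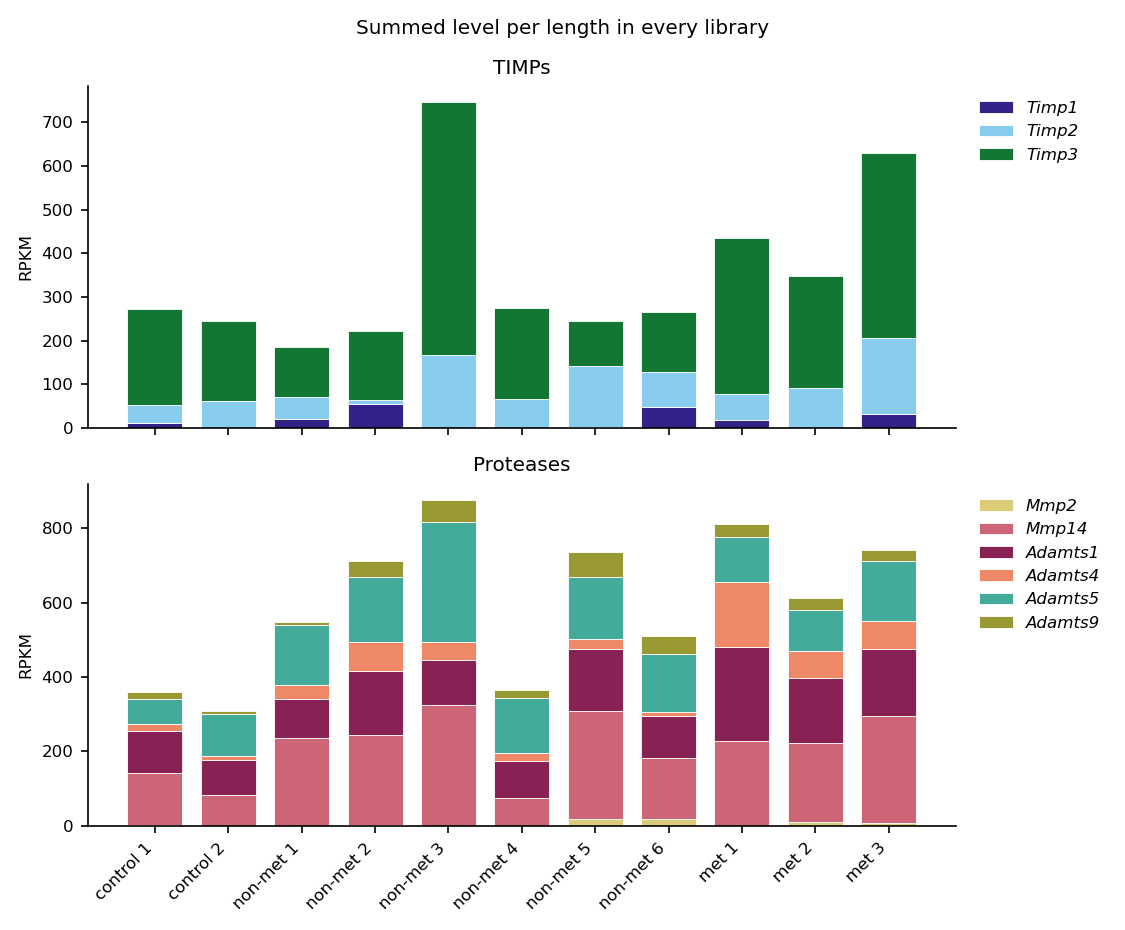
Stacked bars of RPKM for the 3 TIMPs (top) and the 6 proteases (bottom) in each of the 11 libraries, on linear axes from 0. *Timp3* fills most of the TIMP bar in 10 libraries (41.7% in non-met 5), and the 2 control bars are the lowest of the protease panel.

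*Timp3*, the matrix-bound inhibitor, was higher in met than in both other groups by the weighted fit. It stood at 1024 and 861.9 CPM in the controls, at 476.1 to 2715 (median 689.8) in the 6 non-met libraries, and at 1673, 1196 and 1984 in the met libraries. Every met library lay above both controls and above 5 of the 6 non-met libraries, while non-met 3 lay above all met libraries. With voomLmFit and Benjamini-Hochberg adjustment over all genes, met exceeded non-met by 1.24 on the log2 scale (SE 0.28, adjusted p = 0.0429). It exceeded control by 0.86 (SE 0.07, adjusted p = 2.16e-08). Non-met differed from control by -0.38 (SE 0.27, adjusted p = 0.434, voomLmFit), which is no call. The same fit called 0.427% of all genes in met against non-met, 1.2% in met against control and 0.636% in non-met against control.

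The met against non-met call for *Timp3* depended on the test and on the mouse pools. It held in voomLmFit without sample weights (adjusted p = 0.00375). The unweighted difference of means was 0.93 (exact two-sided permutation p = 0.155, adjusted p = 1 over all genes) and limma-trend gave an adjusted p of 0.911. With a fixed replicate block for the mouse pools the voomLmFit estimate turned to -0.48 (adjusted p = 0.9996), and with pool as a random block it stayed called (adjusted p = 0.0349). With the libraries of a pool and group summed, the call was lost (1.13, adjusted p = 0.0617), as was that against control (0.82, adjusted p = 0.0592, both voomLmFit). Met 3 carried 86.7% of the weight of the met group for *Timp3* and control 1 carried 99.3% of that of the controls. Without met 3 the estimates were 0.69 against non-met (adjusted p = 0.382) and 0.30 against control (adjusted p = 0.407, both voomLmFit). Without control 1 the estimate against control was 1.22 (adjusted p = 0.169, voomLmFit). The call against non-met was also lost without non-met 1, 2, 4 or 5 or met 1. Among the 7 libraries with more keratin RNA the estimate against non-met was 0.28 (adjusted p = 0.923, voomLmFit). The endothelial markers moved with *Timp3*, since all 12 had estimates above 0 in met against non-met and 4 were called higher by voomLmFit (*Pecam1*, *Cdh5*, *Tie1* and *Eng*) and 0 by the other 3 tests. Against control, voomLmFit called *Pecam1*, *Emcn*, *Tie1* and *Cdh5* higher and *Kdr* lower in met, and the other 3 tests called 0. The unweighted difference of *Kdr* was 0.08, with 1445 to 1865 CPM in met and 2076 and 1161 in the controls. The summed level of the endothelial markers was 9364 and 13780 CPM in the controls and 14940 to 17620 in met. Their part in the *Timp3* differences was not tested.

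*Timp2*, the inhibitor that also takes part in MMP2 activation, was detected in every library and was not called by voomLmFit with sample weights in any of the 3 comparisons. It stood at 154.3 and 219 CPM in the controls, at 34.5 to 598.9 (median 267.8) in non-met, and at 217.2, 331.3 and 632.5 in met. The groups overlapped, and non-met 2 stood lowest of all libraries. Met exceeded non-met by 1.72 (SE 0.60, adjusted p = 0.433) and control by 1.44 (SE 0.54, adjusted p = 0.184) in voomLmFit. Without sample weights the difference from control was called (1.62, adjusted p = 0.0493, voomLmFit), the only 1 of 19 alternatives to do so.

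*Timp1*, a soluble inhibitor often induced in inflamed tissue, switched between near absence and moderate levels inside each group. The controls had 9.58 and 0 CPM, the non-met libraries 0 to 48.2 (median 9.36) and the met libraries 15.9, 0.379 and 27.8. In 5 of 11 libraries it had at most 3 reads, so its fitted fold changes depend on the prior count and are not read as sizes. The 0 reads of control 2 allow up to 0.614 CPM and those of the shallow non-met 4 up to 4.76 CPM (3 reads, counting error only). No comparison was called (adjusted p = 0.34 to 0.998, voomLmFit).

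*Mmp14*, the membrane-bound collagenase, was lowest in healthy marrow and in non-met 4. It stood at 360.3 and 217.5 CPM in the controls, at 190 to 842.2 (median 624.2) in non-met, and at 593.4, 550.9 and 744.3 in met. All met libraries and 5 of 6 non-met libraries lay above both controls. Met exceeded control by 1.09 (SE 0.28) with an adjusted p of 0.0573 in voomLmFit, just outside the threshold. It was inside in 5 of 19 alternatives, including voomLmFit without sample weights (adjusted p = 0.00192), and outside in limma-trend (adjusted p = 1). Non-met exceeded control by 0.97 (SE 0.33, adjusted p = 0.14, voomLmFit), and met against non-met gave 0.12 (SE 0.28, adjusted p = 0.955).

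*Mmp2*, the secreted gelatinase, had 0 reads in 5 of 11 libraries: control 2, non-met 1, 3 and 4, and met 1. The others had 8.70 CPM (control 1), 2.03 (non-met 2), 53.0 (non-met 5), 56.0 (non-met 6), 33.7 (met 2) and 25.2 (met 3). Presence did not follow the groups, and no comparison was called (adjusted p = 0.441 to 0.94, voomLmFit). The 0 reads allow between 0.531 CPM (non-met 1) and 4.76 CPM (non-met 4).

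*Adamts1*, which cuts versican and the basement membrane proteins nidogen 1 and nidogen 2, was the only member whose met libraries all lay above all non-met libraries. The controls had 556.5 and 459 CPM, the non-met libraries 494 to 841.9 (median 573) and the met libraries 1233, 846.2 and 883.5. The gap between the lowest met and the highest non-met library was narrow (846.2 against 841.9 CPM), and 1.54% of all genes separated in this way. The unweighted difference was 0.65 (exact permutation p = 0.0357, adjusted p = 1). In voomLmFit met exceeded non-met by 0.40 (SE 0.19, adjusted p = 0.685), which is no call, and exceeded control by 0.70 (SE 0.12, adjusted p = 0.000847). That second call was absent from limma-trend (adjusted p = 0.977), and it was lost without control 1 (0.99, adjusted p = 0.169), without met 3 (0.74, adjusted p = 0.0674), or with the libraries of a pool and group summed (0.80, adjusted p = 0.0888, all voomLmFit). Non-met against control gave 0.30 (SE 0.19, adjusted p = 0.396, voomLmFit).

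*Adamts4*, an aggrecanase, had the largest estimate of the well-detected members in met against control, without passing the test. It stood at 62.9 and 35.6 CPM in the controls, at 39.1 to 281.2 (median 121) in non-met, and at 644.9, 273.7 and 270.8 in met. All met libraries lay above both controls, and only non-met 2 reached the met range. Met exceeded control by 2.61 (SE 0.92, adjusted p = 0.153) and non-met by 1.02 (SE 0.64, adjusted p = 0.751) in voomLmFit. The unweighted differences were 2.93 (exact permutation p = 0.1, the smallest that 10 splits allow) and 1.67 (exact permutation p = 0.0595). DESeq2 called it in met against control (2.97, adjusted p = 0.0199), in a comparison where DESeq2 called 1.91% of genes.

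*Adamts5*, the other main aggrecanase, was highest in non-met marrow. The controls had 547.1 and 920.2 CPM, the 6 non-met libraries 1200 to 2631 (median 1334) and the met libraries 970.5, 890.2 and 1312. Every non-met library lay above both controls, a separation found in 1.26% of genes (5.03% lay wholly below), and 5 of 6 lay within 1200 to 1427 CPM. Non-met exceeded control by 1.40 in voomLmFit (SE 0.10, adjusted p = 2.68e-09) and by 1.05 unweighted (exact permutation p = 0.0357, the smallest that 28 splits allow; limma-trend adjusted p = 0.281). Met exceeded control by 1.12 in voomLmFit (SE 0.13, adjusted p = 9.20e-06), but met 2 (890.2 CPM) lay below control 2 and the unweighted difference was only 0.56. Control 1, the lower of the 2, carried 98.6% of the control weight. Without it the estimates were 0.66 for non-met (adjusted p = 0.171) and 0.45 for met (adjusted p = 0.433, voomLmFit). Without met 3 the estimate for met was 0.72 (adjusted p = 0.27, voomLmFit). Among the controls and non-met 1 and 2, the libraries with little keratin RNA, non-met exceeded control by 0.97 (adjusted p = 0.185, voomLmFit).

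Between met and non-met, *Adamts5* had an estimate of -0.29 (SE 0.16, adjusted p = 0.739, voomLmFit) and an unweighted difference of -0.50 (exact permutation p = 0.155). With the fixed replicate block for mouse pools it was called lower in met by voomLmFit (-1.14, adjusted p = 0.00777). That fit used the 9 burdened libraries and called 28 of 9432 genes (0.297%), 24 of them lower in met (0.254%). *Adamts5* was the only member it called. The random block (-0.28, adjusted p = 0.768) and the fit on libraries summed by pool and group (-0.39, adjusted p = 0.894) did not call it (voomLmFit), and the fixed block was the only 1 of 21 alternatives that did. The estimate was below 0 in all 21 alternatives run for this comparison.

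*Adamts9*, a versican-cleaving protease, was even across met and scattered elsewhere. It stood at 123.9 and 38.7 CPM in the controls, at 39.3 to 399.3 (median 271.2) in non-met, and at 211.4, 186.5 and 190.3 in met. The SD of log2 CPM was 0.10 over the 3 met libraries and 1.25 over the 6 non-met libraries. All met libraries lay above both controls, and no comparison was called (adjusted p = 0.482 to 0.975, voomLmFit).

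**Figure D2:**
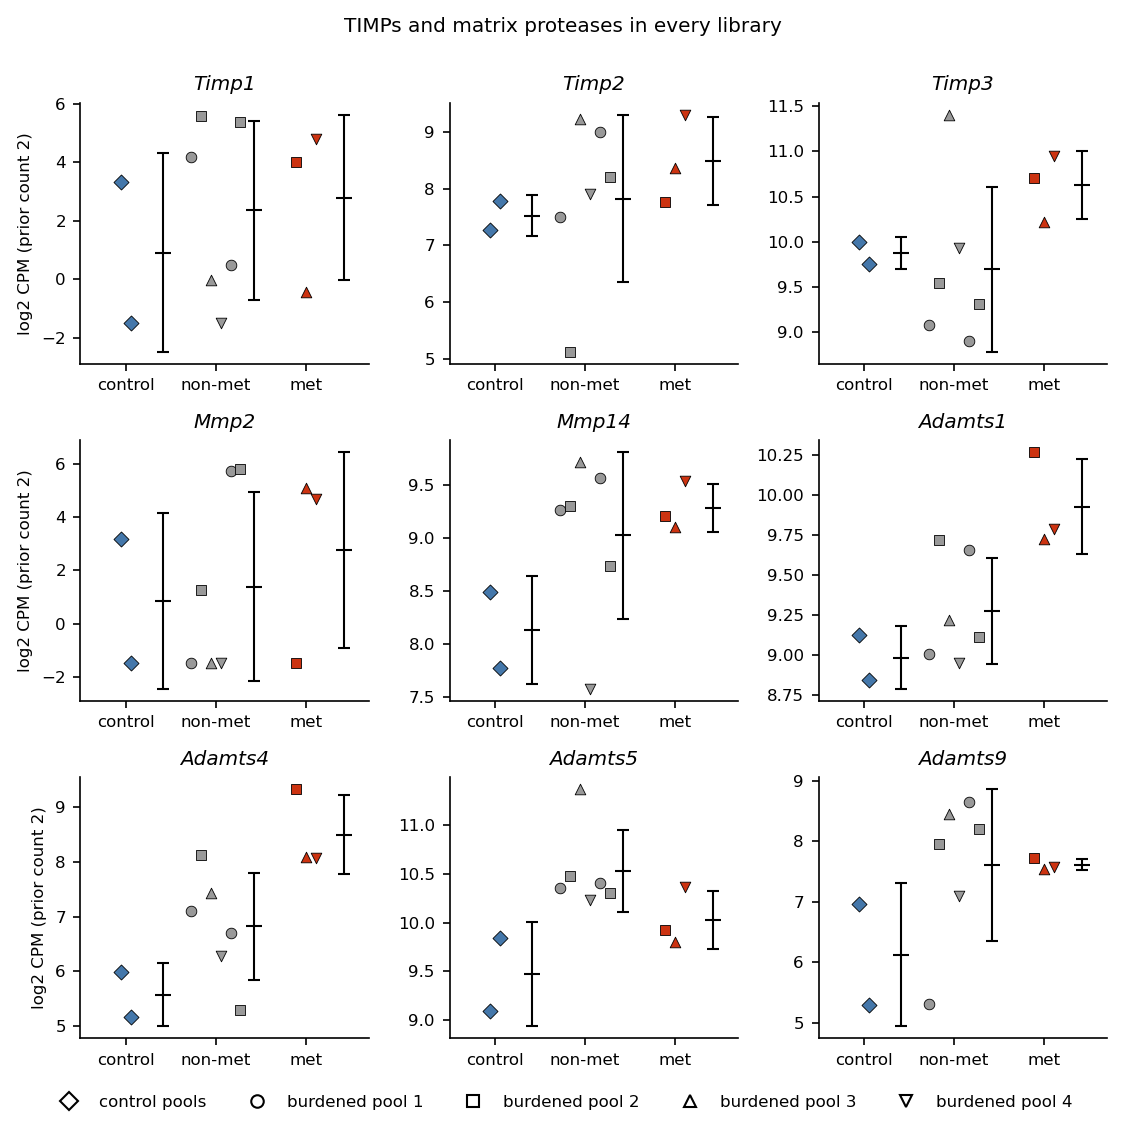
Log2 CPM (prior count 2) of each gene in each library, with control in blue, non-met in grey and met in red, symbols for mouse pools, and the group mean ± SD beside the points. The group means of *Adamts1* and *Adamts4* are highest in met (9.93 and 8.50), that of *Adamts5* is highest in non-met (10.52), and *Timp1* and *Mmp2* fall into high and near-zero libraries in every group.

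Counted over the 9 genes, voomLmFit called 1 in met against non-met, 3 in met against control and 1 in non-met against control, all higher in the first group named. The same fit called 0.427%, 1.2% and 0.636% of all genes, and 0.285%, 0.686% and 0.184% as higher. At an unadjusted p under 0.05 the counts were 3, 6 and 2, where 7.24%, 14.1% and 17% of all genes passed. Estimates were above 0 for 7, 9 and 7 of the 9, where 51.8%, 48% and 44.1% of all genes were above 0. For 5 of 9 genes (*Timp3*, *Mmp14*, *Adamts1*, *Adamts4* and *Adamts9*) all met libraries lay above both controls, where 8.43% of genes did so. The edgeR quasi-likelihood test called 0 of the 9 in each comparison (1, 1 and 1 at an unadjusted p under 0.05), as did limma-trend (2, 2 and 1). DESeq2 called 0, 1 and 0 (2, 2 and 4). At an unadjusted p under 0.05, of all 11948 genes, the quasi-likelihood test passed 1001, 551 and 513, limma-trend 561, 593 and 533, and DESeq2 1131, 755 and 770. Of all genes, the quasi-likelihood test called 0.134%, 0.0837% and 0.117%, limma-trend 0.0167%, 0.0753% and 0.067%, and DESeq2 2.71%, 1.91% and 2.23%. The 3 comparisons share libraries (the 2 against control have the same controls), so they are not independent of each other. The 9 genes were chosen with earlier results of these data known, so their counts beside these shares are a description and no test.

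**Figure D3:**
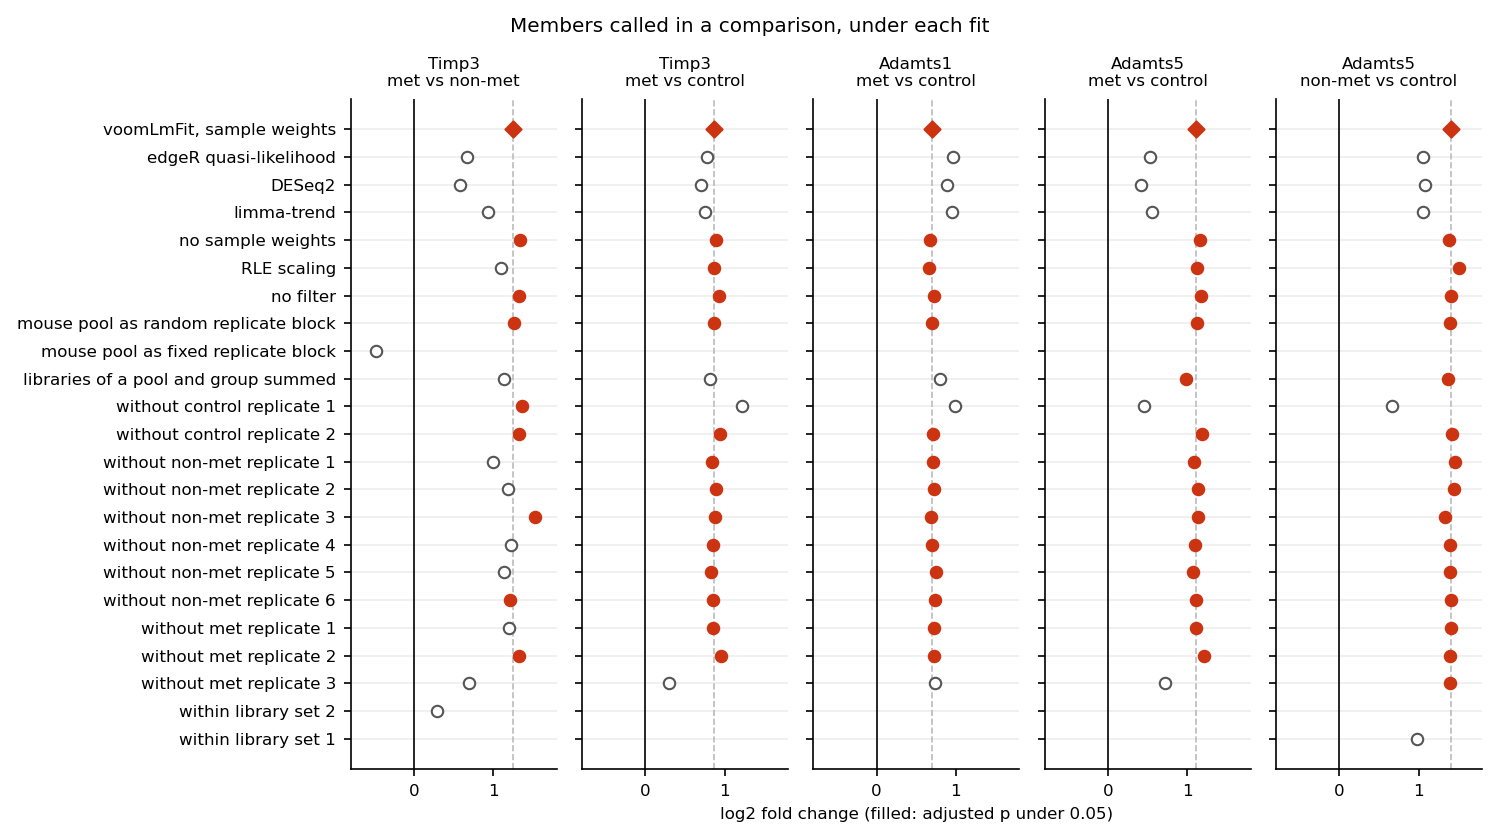
Log2 fold change of the 5 calls under each fit, filled where the adjusted p is under 0.05, with a dashed line at the reported value. The 4 calls against control hold in 13 of 16 to 15 of 17 voomLmFit variants and that of *Timp3* against non-met in 8 of 18, whereas the edgeR quasi-likelihood test, DESeq2 and limma-trend keep none, and the fixed mouse pool block turns *Timp3* to -0.48.

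Libraries cut from the same mice were set side by side, since 4 pairs of met and non-met libraries share a pool. Met exceeded non-met in 4 of 4 pairs for *Adamts1* (log2 difference 0.51 to 1.16) and for *Adamts4* (0.66 to 4.03). Of all genes, 7.6% were higher in met in every same-pool pair and 5.67% lower. *Timp3* was higher in met in 3 pairs (1.02 to 1.39) and lower in pool 3 by a difference of -1.18, where non-met 3 held 2715 CPM. *Adamts5* and *Adamts9* were each higher in met only in pool 4 (0.13 and 0.49) and lower in the other 3 pairs. *Timp2*, *Mmp14* and *Mmp2* were split 2 against 2, and *Timp1* was lower in 3 of 4. For *Timp1* the pair of pool 3 had 2 reads in each library, too few to give a direction. Met 1 enters 2 of the pairs, so the pairs are not independent.

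**Figure D4:**
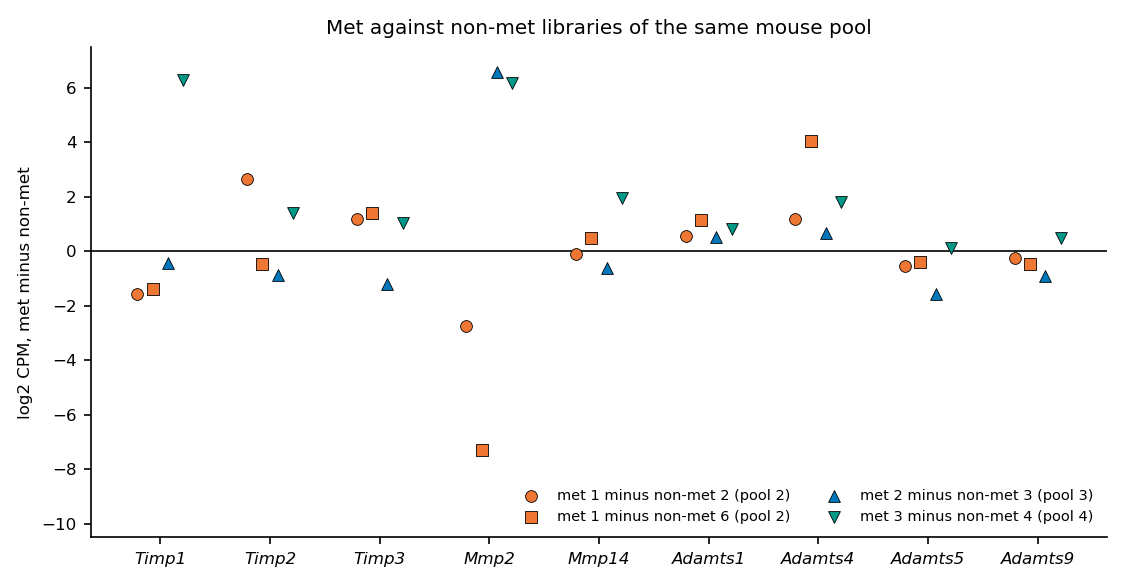
Difference of log2 CPM, met minus non-met, for each of the 4 same-pool pairs and each gene. All 4 points lie above 0 for *Adamts1* and *Adamts4*, 3 of 4 lie below 0 for *Adamts5* and *Adamts9*, and the wide spread of *Timp1* and *Mmp2* comes from libraries with 0 reads.

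*Adamts1* and *Adamts4* followed each other across libraries, with a Pearson r of 0.86 and a Spearman rho of 0.85 over the 11 libraries (log2 CPM). Without met 1 and met 3, the libraries farthest from the median of *Adamts1*, r was 0.74. Within the 6 non-met libraries r was 0.53. These libraries share depth and composition effects, and the value is a description. *Adamts1* and *Adamts5*, although neighbours on chromosome 16, had an r of 0.01.

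The inhibitor *Timp3* and its target *Adamts5* were compared per length, a pair chosen after their values were seen, so no test is given. The ratio of *Timp3* to *Adamts5* RPKM was 3.24 and 1.62 in the controls, 0.608 to 1.79 (median 0.887) in non-met and 2.98, 2.33 and 2.62 in met. *Adamts5* RNA exceeded *Timp3* RNA in 4 non-met libraries and in none of the controls or met libraries. All met ratios lay above all non-met ratios.

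**Figure D5:**
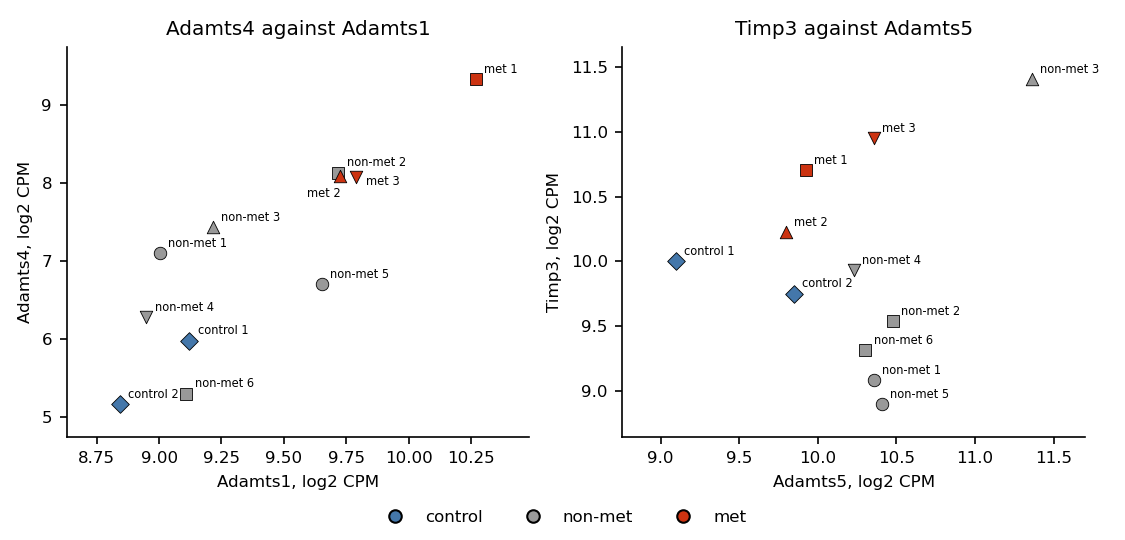
Log2 CPM of *Adamts4* against *Adamts1* (left) and of *Timp3* against *Adamts5* (right) in the 11 libraries, coloured by group with a symbol per mouse pool. On the left the points run along a diagonal (r = 0.86), and on the right the met libraries lie above 5 of the 6 non-met libraries in *Timp3*, with non-met 3 high in both genes.

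The rest of the pathway was taken from lists of related genes, whose calls in this and the next 3 paragraphs are those of voomLmFit unless another test is named. Of 21 other MMP genes 10 were tested and voomLmFit called 0 in each comparison, with 4 (*Mmp16*, *Mmp20*, *Mmp21* and *Mmp24*) at 0 reads throughout. *Mmp13*, a collagenase of bone, was the most abundant of them, at 312.9 and 290.4 CPM in the controls, 21.3 to 1528 (median 173.6) in non-met and 190.3, 289.8 and 444.6 in met. The 1528 CPM belonged to non-met 5. *Mmp15*, a membrane-bound MMP, ranged from 0 (met 1) to 276.8 CPM (non-met 4). Of 15 other ADAMTS genes 10 were tested and voomLmFit called 0, and the most abundant were *Adamts7* (54.6 to 423.7 CPM) and *Adamts10* (1.32 to 215.4). Of 7 ADAMTS-like genes, which have no protease domain, 5 were tested and voomLmFit called 0, led by *Papln* (0 to 126.6 CPM) and *Adamtsl2* (0 to 61.4).

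Among 4 other inhibitors 3 were tested and voomLmFit called 0. *Tfpi2*, a serine protease inhibitor that also binds MMPs, ranged from 0 to 418 CPM and *Timp4* from 0 to 49.4, the latter with at most 0.115 CPM in any met library. Of 9 ADAM sheddases, the membrane-bound relatives, 7 were tested and 1 was called. *Adam15*, an ADAM of endothelial cells, stood at 418.7 and 392.8 CPM in the controls, 276.3 to 926.4 (median 623.5) in non-met and 704.4, 799.6 and 1077 in met. All met libraries lay above both controls, and met exceeded control by 1.24 in voomLmFit (SE 0.17, adjusted p = 3.76e-05; limma-trend adjusted p = 0.978). *Adam10*, the main sheddase of Notch, was next in abundance. It stood at 276.9 and 272.3 CPM in the controls, 124.2 to 335 in non-met and 348.9, 503.5 and 349.7 in met. All met libraries lay above all others, without a call (adjusted p = 0.735 against non-met and 0.465 against control, voomLmFit). Of all genes, 1.54% lay wholly higher in met than in non-met, and 8.43% wholly higher in met than in control.

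Of 12 genes for activation and uptake of proteases 11 were tested and 1 was called, *Itgb1*, an integrin subunit that receives matrix signals. It stood at 896.3 and 790.6 CPM in the controls, 911.6 to 2164 (median 1254) in non-met and 2190, 1886 and 1912 in met. Every burdened library lay above both controls, where 8.43% of all genes did so in met and 1.26% in non-met. Met exceeded control by 1.10 (SE 0.04, adjusted p = 4.10e-15) and non-met exceeded control by 0.68 (SE 0.11, adjusted p = 0.00163, voomLmFit), with limma-trend adjusted p-values of 0.285 and 0.872. The caveolar gene *Cav1* was second in abundance and was not called. Of 12 ADAMTS substrates 10 were tested and voomLmFit called 0, led by the basement membrane gene *Nid1* (587 to 1906 CPM) and the small proteoglycan gene *Bgn* (7.11 to 562.7). In met against non-met, 3 of the 10 had an estimate above 0 and 7 below. The versican gene *Vcan* ranged from 0 to 56.8 CPM, with at most 5.05 in met. The aggrecan gene *Acan* ranged from 0 to 77.8 CPM and had 0 reads in 7 libraries.

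Most of the counts of 0 were accompanied by some genes at an unadjusted p under 0.05 in voomLmFit. In met against non-met these were 0 of the other MMPs, 1 of the other ADAMTS genes and 3 of the substrates, in met against control 1, 2 and 4, and in non-met against control 2, 2 and 3. The ADAMTS-like genes had 0, 3 and 3 and the other inhibitors 0, 2 and 1. DESeq2, with the shares of all genes given above, called *Mmp8*, *Adamts10*, *Adamts19* and *Dcn* in met against non-met. It called *Mmp8*, *Adamts19*, *Adamtsl1* and *Adamtsl2* in met against control, and *Adamtsl1*, *Adamtsl2* and *Fn1* in non-met against control. *Adamts19* had 1 read in control 1 and 0 reads in control 2 and in every met library. *Mmp8* had 49 reads in control 1 and 0 in control 2 and in every met library. *Adamtsl1* and *Adamtsl2* had 0 reads in both controls. Calls of these genes rest on libraries at or near 0 reads and are not read as sizes. The edgeR quasi-likelihood test and limma-trend called 0 genes of these 7 lists in each comparison, with up to 4 and up to 3 of a list at an unadjusted p under 0.05. The median voomLmFit estimate of the other ADAMTS genes was -0.51 in met against non-met, -0.66 in met against control and 0.44 in non-met against control. That of the 4 ADAMTS members was 0.28, 1.26 and 1.32, and that of all genes 0.08, -0.09 and -0.33. These members were chosen with earlier results of these data known. The medians of the other MMPs were -0.08, -0.18 and 0.99, those of the ADAM sheddases 0.49, 0.62 and -0.13, and those of the substrates -0.31, 0.89 and 2.50. Several medians differed in size or sign without weights. In non-met against control the median unweighted difference was 0.05 for the substrates, -0.91 for the other MMPs, -0.97 for the other ADAMTS genes, 1.15 for the 4 ADAMTS members and -0.79 for all genes. In met against non-met it was 0.45 for the other MMPs, 0.003 for the other ADAMTS genes and 0.26 for all genes.

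One substrate outside the rule for named genes was singled out after its values were seen. *Nid2*, a basement membrane protein cut by ADAMTS1, stood at 225 and 58.7 CPM in the controls, 135.9 to 448.5 in non-met and 589, 697.6 and 527.1 in met. All met libraries lay above all others, as for *Adamts1*, and 1.54% of genes separated met from non-met in this way. The unweighted difference between met and non-met was 1.25, with no test since the gene was chosen for this pattern.

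The genes whose levels were most like those of each member were sought among 6052 genes with a mean of at least 32 CPM, by Pearson r of log2 CPM over the 11 libraries. *Timp3* was most like *Ptprb*, the vascular endothelial phosphatase (r = 0.94), *Itm2b* (0.88) and *Ubb-ps* (0.88). *Adamts4* was most like *Igfbp3* (0.88), *Cd34* (0.86) and *Plec* (0.86), and *Adamts1* was most like *Prkar1a* (0.89), *Acadl* (0.88) and *Impdh1* (0.87). *Adamts5* was most like *Lrg1*, a secreted glycoprotein of vessels (0.88), *Ehd3* (0.86) and *Igfbp2* (0.83). *Mmp14* was most like *Fam133b* (0.95), *Ubl3* (0.92) and *Morc2a* (0.91), and *Adamts9* was most like *Bloc1s1* (0.94), *Cog2* (0.93) and *Rpl17-ps10* (0.88). For *Timp2* the genes were *Ilrun* (0.93), *Rab11fip5* (0.92) and *Cox6c* (0.88), for *Timp1* *Ap4b1* (0.88), *Pdlim5* (0.88) and *Fcer1g* (0.86), and for *Mmp2* *Rab8b* (0.84), *Dennd2a* (0.83) and *Rp9* (0.82). No member was among the 3 genes most like another member.

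Values of other cells and states moved with some of these results. Immediate early genes (21, of which 20 were tested) summed to 13790 and 16390 CPM in the controls. Their sums were 9731 to 14510 in non-met and 5248 to 8580 in met. VoomLmFit called *Fos*, *Jun* and *Junb* lower in met than in non-met. It also called 6 of the list lower in met and 3 lower in non-met than in control. DESeq2 called 6 in met against non-met (without *Jun*), 5 in met against control and 0 in non-met against control. The edgeR quasi-likelihood test and limma-trend called 0 in each comparison. The summed level of the granulocyte markers was higher in every non-met library than in any met library, although 6 of the 10 genes overlapped one by one. Their 10 estimates in met against non-met were all below 0. VoomLmFit called 0 of them (8 at an unadjusted p under 0.05), the edgeR quasi-likelihood test 4, DESeq2 7 and limma-trend 1 (*S100a8*). In non-met against control their summed level lay above both controls in every non-met library. VoomLmFit called 0 of them there (6 at an unadjusted p under 0.05), the quasi-likelihood test called *S100a9* and DESeq2 called *Retnlg* and *Ltf*. Monocyte and macrophage markers summed to 998.8 and 1566 CPM in the controls, 459.6 to 1398 in non-met and 353.7 to 876.9 in met. Most of this was *Mrc1*, which sinusoidal endothelium also expresses (928.9 and 1526 CPM in the controls, 306.2 to 825.3 in met), while *Ccr2*, *Fcgr1* and *C1qa* had 0 reads in every library. DESeq2 called *Lyz2* and *Adgre1* in met against non-met and *Adgre1* in non-met against control. Mammary epithelial markers summed to at most 110.2 CPM, osteoclast markers to at most 41.9 and platelet markers to at most 100 CPM in any library. The platelet integrin gene *Itga2b* had 100, 29.9 and 30.6 CPM in met, 26.9 in non-met 2 and 0 reads elsewhere. VoomLmFit called it higher in met than in control (adjusted p = 0.0405), and DESeq2 called *Pf4* against control in both met and non-met. *Cxcl12*, a stromal chemokine, was the only stromal marker called, lower than control in both met and non-met (voomLmFit). Non-met 3, which stood out for *Timp3* and *Adamts5*, had the highest summed endothelial level (17760 CPM). The part of these values in the differences of the 9 genes was not tested.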

How the data were processed

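RNA of sorted CD31hi EMCNhi endothelial cells was sequenced from low-input SMART-Seq v4 libraries. The authors deposited raw counts per Entrez gene, which were made by aligning reads to mm10 and counting with featureCounts on its built-in NCBI annotation. Strand use and deduplication are not given in the sources used here. The 11 single-library tables equal the series table. Of 27179 rows, 1886 without a name, 36 ribosomal RNA and 1794 predicted rows were left out (1.945% to 15.75% of counts), since the study also removed such genes. Names came from RefSeq (25275 rows) and GENCODE (18 rows).

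Of 23463 rows, 11948 passed filterByExpr (minimum count 10, total 15). Counts were scaled by TMM and fitted with voomLmFit (edgeR 4.0.16, limma 3.58.1, R 4.3.3) with sample weights over 3 groups and all 11 libraries, following the study, with Benjamini-Hochberg adjustment over all genes and a threshold of 0.05. Log2 CPM used a prior count of 2. Unweighted differences of mean log2 CPM were tested by two-sided exact permutation over 84, 10 and 28 splits. Their smallest p-values are 0.0119, 0.1 and 0.0357. Counts of 0 were given a limit of 3 reads.

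Mouse pool labels mark shared animals, so pool was added as a random or a fixed replicate block. Deviations of met and non-met libraries from their group means correlated by -0.02 to 0.022 (Spearman, 4 same-pool pairs) and by -0.05 to 0.071 (14 pairs of other pools). Sample numbers do not pair libraries. Other fits tried were DESeq2 1.42.0, limma-trend, the quasi-likelihood test of edgeR, no sample weights, RLE scaling, no filter, both blocks, summed libraries and each library left out. A keratin split at 5 CPM was added after seeing the data. The fits were tested on simulated data.

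The members, gene lists and tests were chosen with earlier results of these data known. Beside the members, genes were named if called or among the 2 with the highest mean RPKM of their list, and 3 genes most like each member were taken. The substrates *Vcan*, *Acan* and *Nid2* were named outside this rule. Python 3.11.15, numpy 2.4.6, pandas 2.3.3 and matplotlib 3.10.9 were used.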

Additional observations from a re-analysis of the deposited data

Results flagged for a closer look

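*Adamts5* in non-met 3 stood far from the other non-met libraries. Its level was 11.36 on the log2 CPM scale (2631 CPM), and its gap to the nearest library was 0.779 of the range of the group, where the 95% critical value for 6 libraries is 0.625. The 6 non-met values of each of the 9 genes were examined, and chance marks about 1 in 20 of such groups. Without non-met 3, voomLmFit still called *Adamts5* higher in non-met than in control (1.33, adjusted p = 4.725e-09).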

How the results depend on the processing

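Of 540 alternative values for the fold changes of the 9 genes, 461 kept direction and side of the threshold, 34 lost a call, 9 gained one and 36 changed sign. The cause of these changes was not tested. Most of the 27 results were not called, and for them staying uncalled with the same sign counts as kept. The call of *Timp3* in met against non-met was kept in 8 of 21 alternatives. In met against control calls were kept in 13 of 19 for *Timp3*, 13 of 19 for *Adamts1* and 14 of 19 for *Adamts5*. In non-met against control *Adamts5* kept its call in 15 of 20.

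In met against non-met, 51 genes were called (34 higher, 17 lower), against 16 by edgeR's quasi-likelihood test (3 and 13), 324 by DESeq2 (21 and 303), 2 by limma-trend, 79 with no filter, 28 with a fixed replicate block for mouse pools, 24 with libraries of a pool and group summed and 13 within the 7 libraries with keratin. RLE scaling gave 24 higher and 21 lower and moved the median of all genes from 0.08 to -0.09. The random replicate block called 52 genes. Of the 9 members, 0 were called by the quasi-likelihood test, DESeq2, limma-trend, RLE scaling, summed libraries or the keratin set. *Timp3* had 0.67 by quasi-likelihood, 0.58 by DESeq2, 0.93 by limma-trend, 1.10 with RLE scaling (adjusted p = 0.0887), 1.13 summed (adjusted p = 0.0617), 0.28 in the keratin set and -0.48 with the fixed replicate block. *Timp1* turned positive with limma-trend (0.44), no sample weights (0.041), the fixed block (0.12), summed libraries (0.43) and the keratin set (0.80). *Mmp2* was -0.22 by DESeq2. *Mmp14* was -0.017 by DESeq2, -0.012 with RLE scaling and -0.17 with the fixed block. *Adamts9* was -0.32 by quasi-likelihood, -0.48 by DESeq2, -0.51 with the fixed block, -0.15 summed and -0.76 in the keratin set. *Adamts5* gained a call with the fixed block (-1.14).

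In met against control, 143 genes were called, against 10 by quasi-likelihood, 228 by DESeq2, 9 by limma-trend, 274 without sample weights, 429 with no filter and 55 summed. Members called numbered 3, against 0, 1, 0, 5 without sample weights and 1 summed. *Timp3* was 0.78 by quasi-likelihood, 0.70 by DESeq2, 0.75 by limma-trend and 0.82 summed. *Adamts1* was 0.96, 0.89, 0.94 and 0.80, and *Adamts5* 0.53, 0.41 and 0.56 by the first 3. These values lost the calls of the 3 genes, and *Adamts5* kept its call when summed. In non-met against control, 76 genes were called, against 14, 266, 8, 140 without sample weights, 184 with no filter, 33 summed and 39 within the controls and non-met 1 and 2. Members called numbered 1, against 0 by quasi-likelihood, DESeq2, limma-trend and that set, and 2 without sample weights. *Adamts5* was 1.06 by quasi-likelihood, 1.08 by DESeq2, 1.05 by limma-trend and 0.97 in that set. *Timp2* turned to 0.73, 0.78, 0.30 and, summed, 0.023, *Timp3* to 0.11 and 0.12 by quasi-likelihood and DESeq2, and *Mmp2* to -0.88 in that set.

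Leaving out 1 library at a time gave 16 to 87 genes in met against non-met (16 without met 3, 87 without control 1, 32 without non-met 5), 36 to 293 in met against control (36 without met 3, 69 without control 1, 83 without non-met 5, 91 without met 2, 293 without control 2) and 33 to 228 in non-met against control (33 without non-met 5, 42 without non-met 2 or 6, 44 without non-met 4, 228 without control 2). Members called ranged over 0 to 1, 0 to 4 and 0 to 1. *Timp3* spanned 0.69 to 1.52 against non-met, losing its call without non-met 1, 2, 4 or 5 or met 1 or 3, and 0.30 to 1.22 against control, losing it without control 1 or met 3. *Adamts1* spanned 0.69 to 0.99 and *Adamts5* 0.45 to 1.21 in met against control, both lost without control 1 or met 3. *Adamts5* spanned 0.66 to 1.46 in non-met against control, lost without control 1. Ranges that crossed 0 in met against non-met were -1.05 to 2.11 (*Timp1*), -1.65 to 3.46 (*Mmp2*), -0.14 to 0.22 (*Mmp14*) and -0.54 to 0.47 (*Adamts9*). They were -1.01 to 6.68 (*Timp1*) and -0.33 to 7.16 (*Mmp2*) in met against control, and -0.98 to 5.75 (*Timp1*), -0.69 to 0.84 (*Timp2*) and -1.57 to 5.03 (*Mmp2*) in non-met against control. With 1 control left, that library is assumed to vary like the other groups. Met and control never share a keratin set, so that comparison could not be made within one. In non-met 4, the shallowest library, 3 reads equal 4.76 CPM.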
